A study of Mus musculus with 15 samples.

Results

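Imprinted genes are expressed mainly from the copy inherited from 1 parent, and their levels were followed here in the cell types of the mouse prefrontal cortex (PFC), across adolescence and after cocaine. The genes were taken from a list of 35 well-known imprinted mouse genes, and 34 of them occurred among the 26145 genes of the deposited matrices. The list was chosen by name and not by a cutoff on a measured value, but with earlier results of these data known. Kcnq1ot1 had no entry under that symbol and was not analysed here. The study profiled PFC of male C57BL/6N mice by droplet single-cell RNA sequencing in 15 libraries, each described as a pool of 2 mice. Of these, 3 libraries came from P21 mice, the age of weaning, with no treatment named. The methods name fewer P21 mice than 3 pools of separate mice would need, so some P21 libraries may share animals, and n = 3 counts libraries. The other 12 came from adults, called P60 here, that had self-administered either cocaine or saline through a jugular catheter. They were sampled during maintenance of drug taking or after 48 h or 15 d of withdrawal, with 2 libraries for each treatment and period. The paper gives P60 as the age at which the catheter was implanted. By that account the mice were older than P60 when sampled, and the periods differ in age.

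In an imprinted locus the parental copies carry different DNA methylation at a control region, which silences some genes on the maternal and others on the paternal chromosome. Many such genes govern growth before and after birth, and in the brain several of them act on feeding, maternal care, sleep and the onset of puberty. Imprinting can differ between tissues, and Ube3a, for example, is expressed from the maternal copy in neurons but from both copies in most other cells. The counts do not separate the parental copies, so each value below is a total over both.

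The sequences just upstream of 3 genes on which the age comparison turned are shown because CG dinucleotides are where imprinting marks are laid. They are RefSeq promoter windows of 250 bases in the GRCm38.p6 build, read in the direction of transcription, with each CG in capitals. Nnat lies at chr2:157559828-157560077 on the plus strand, Blcap at chr2:157566362-157566611 on the minus strand and Mkrn3 at chr7:62420154-62420403 on the minus strand.
Nnat: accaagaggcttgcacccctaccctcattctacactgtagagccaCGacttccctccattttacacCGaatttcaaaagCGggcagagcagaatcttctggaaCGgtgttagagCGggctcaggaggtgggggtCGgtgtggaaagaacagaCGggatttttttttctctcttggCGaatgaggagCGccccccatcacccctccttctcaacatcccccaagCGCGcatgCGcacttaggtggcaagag
Blcap: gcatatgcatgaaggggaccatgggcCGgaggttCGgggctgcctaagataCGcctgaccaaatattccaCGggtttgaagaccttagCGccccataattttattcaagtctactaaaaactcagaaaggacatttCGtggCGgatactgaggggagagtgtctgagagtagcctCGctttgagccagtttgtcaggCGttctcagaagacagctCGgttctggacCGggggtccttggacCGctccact
Mkrn3: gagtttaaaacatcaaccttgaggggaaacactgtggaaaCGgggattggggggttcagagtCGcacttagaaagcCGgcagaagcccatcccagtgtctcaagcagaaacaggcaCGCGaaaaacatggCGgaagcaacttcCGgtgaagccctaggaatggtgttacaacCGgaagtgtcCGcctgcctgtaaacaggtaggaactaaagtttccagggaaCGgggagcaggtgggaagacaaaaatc
The Nnat and Blcap windows held 12 CG each and the Mkrn3 window 10, against a median of 6 over all 32536 windows of that length. Over the 45 windows of the 29 imprinted genes found in the table, the median was 10. The letters TGCCGC, the core of the motif of the imprint-keeping factor ZFP57, occurred on either strand in 7 of those 45 windows and in 8.75% of all windows. None of the 3 windows above held them, which says only that these letters are not in these bases.

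After the study's filters 35360 cells were analysed, 10538 from P21 and 24822 from P60, with 1055 to 4439 cells and 8375172 to 42892922 UMIs (unique molecular identifiers, each marking 1 captured RNA molecule) per library. The tissue tag of the labels names the nucleus accumbens while the titles name the PFC; the summed level of 4 striatal markers was 30.8 CPM at P60 saline against 997 CPM for 3 markers of cortical excitatory neurons. Of the 3 P21 libraries, library 1 stood apart: in excitatory neurons its counts differed from libraries 2 and 3 by a chi-square per degree of freedom of 44.4 and 39.2, while libraries 2 and 3 differed by 3.68 and the other pairs of replicates by 6.60 to 17.0. At P21 the class given to a cell and the class of its cluster disagreed in 459 cells, 4.36%, against 33 cells, 0.133%, at P60. Of the P21 cells labelled oligodendrocyte precursors (OPC), 22 lay in OPC clusters and 29 in excitatory clusters, and of those labelled microglia, 182 lay in microglial and 64 in excitatory clusters, and their own markers were low at P21, 302 against 1293 CPM in OPC and 4105 against 16969 CPM in microglia. Pairs of libraries shared at most 40 deposited cell barcodes, at most 1.00% of the smaller library.

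Most imprinted genes were neuronal, with inhibitory neurons at the top. Levels are given in CPM, the UMIs of a gene scaled to all UMIs of that cell type in a library, averaged over the P60 libraries with at least 10 such cells, and they describe these cells without a test because the types were made from the same cells. Of the 27 imprinted genes that reached 5 CPM in some type, 15 (55.6%) had their highest mean in inhibitory neurons, while 14.2% of all 13454 genes at that level did. Of these 15, only Nap1l5, Impact, Peg3 and Blcap had every inhibitory library above those of the type with the next highest mean. Excitatory neurons were highest for 1 of the 27, against 15.3% of all genes, and endothelial cells for 5 (18.5%), against 18.8%. H19 had 0 UMIs in every library, and Magel2, Zim1, Dlk1, Rtl1, Dio3 and Phlda2 stayed under 5 CPM in every type.

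**Figure D1:**
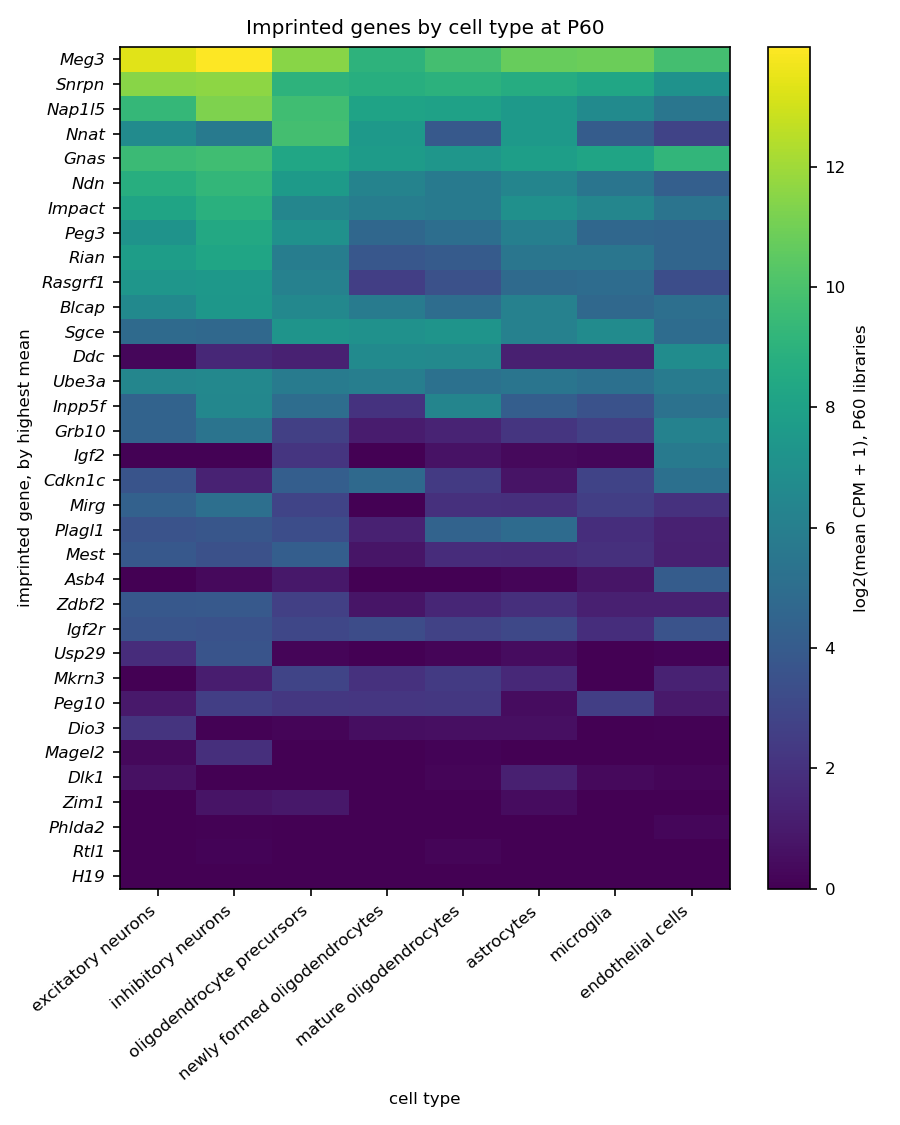
Mean level of each imprinted gene in the 8 cell types of P60 PFC, as colour on the scale log2(mean CPM + 1) over the P60 libraries, with genes ordered by their highest mean. Meg3, Snrpn and Nap1l5 stand at the top with their highest level in inhibitory neurons, whereas Igf2, Grb10 and Asb4 are highest in endothelial cells and Nnat in OPC.

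The Dlk1-Dio3 domain on chromosome 12 gave the most abundant transcript. Meg3, a maternally expressed non-coding RNA, reached 16282 ± 2326 CPM (SD, n = 12) in inhibitory neurons, with a range of 11785 to 19659, and 10345 ± 1178 CPM in excitatory neurons, and it was lowest in newly formed oligodendrocytes at 532 CPM. Rian and Mirg, the non-coding RNAs downstream of it, had the same order of the neuron classes, at 293 ± 32.9 and 33.0 ± 7.64 CPM in inhibitory neurons. Over the 34 neuron clusters of P60, the level of Meg3 correlated with that of Rian (r = 0.78) and Mirg (r = 0.72) on the scale log2(mean CPM + 1). The rank correlations were 0.58 and 0.65. This is a description only, since the clusters share libraries and depth and include both neuron classes. Dio3, which inactivates thyroid hormone, was rare in bulk excitatory neurons at 3.23 CPM but reached 20.7 ± 11.3 CPM (n = 12) in the cluster Exc_4, whereas its median over the 26 excitatory clusters was 0.416 CPM.

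In the Prader-Willi and Angelman region on chromosome 7, Snrpn, which encodes a neuronal spliceosome protein, stood at 3137 ± 243 CPM (n = 12) in inhibitory and 2912 ± 223 CPM in excitatory neurons, and these ranges overlapped. Ndn, the growth suppressor necdin, reached 610 ± 205 CPM in inhibitory neurons, and in excitatory clusters it ran from 220 CPM in Exc_1 to 944 CPM in Exc_21. Ube3a, a ubiquitin ligase, was the flattest of the region, from 35.2 CPM in microglia to 91.6 CPM in inhibitory neurons. Magel2, a relative of Ndn, reached 2.76 CPM in inhibitory neurons.

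Nap1l5, a nucleosome assembly protein gene inside an intron of Herc3, had the largest ratio to the next type among the genes whose inhibitory libraries did not overlap those of that type. It stood at 2453 ± 590 CPM there (range 1752 to 3371, n = 12) and at 818 ± 183 CPM in OPC, the next type. Peg3, a zinc finger gene of the Peg3 domain, did not overlap either, at 344 ± 58.0 CPM against 146 ± 12.3 CPM in excitatory neurons. Impact, a regulator of translation under amino acid shortage, had 465 ± 47.0 CPM in inhibitory and 288 ± 42.3 CPM in excitatory neurons, again with no overlap. Gnas, the stimulatory G protein alpha subunit, with 830 ± 101 CPM in inhibitory neurons, and Rasgrf1, a Ras exchange factor, with 176 ± 32.5 CPM, overlapped with excitatory neurons. The excitatory cluster Exc_21 had the highest excitatory level of Ndn, Peg3, Meg3, Nap1l5, Impact, Blcap, Grb10, Usp29 and Inpp5f.

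Nnat and Blcap form a nested pair on chromosome 2. In the NCBIM37 build of the files, Nnat spans 157385814 to 157388258 on the plus strand inside an intron of Blcap, which spans 157382098 to 157397010 on the minus strand. Nnat encodes neuronatin, a small membrane protein of the endoplasmic reticulum expressed from the paternal copy, and Blcap encodes a small protein that slows growth. Nnat was highest in OPC at 883 ± 192 CPM (range 507 to 1267), well above newly formed oligodendrocytes at 192 ± 65.5 CPM, and lowest in endothelial cells at 5.97 CPM. Among the excitatory clusters it had the widest range of the abundant members, from 1.84 CPM in Exc_11 to 695 ± 191 CPM (n = 12) in Exc_12. Blcap varied far less, from 60.8 CPM in Exc_10 to 178 CPM in Exc_21, and was highest in inhibitory neurons at 167 ± 22.7 CPM.

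A smaller group was vascular. Igf2, the growth factor, stood at 51.4 ± 15.5 CPM in endothelial cells against 3.53 ± 10.3 CPM in OPC, the next type, and within the endothelial class it was concentrated in Endo_4 and Endo_2, at 150 and 148 CPM. Grb10, an adaptor that dampens insulin receptor signalling, had 71.5 ± 7.69 CPM there, and Asb4, a ubiquitin ligase adaptor, 15.7 ± 4.11 CPM, and for both the endothelial libraries lay above those of every other type. Cdkn1c, the cyclin-dependent kinase inhibitor p57, had 34.2 ± 8.99 CPM in endothelial cells, with 102 CPM in Endo_2, close to newly formed oligodendrocytes at 26.2 ± 10.3 CPM, whose libraries overlapped, and a peak of 37.4 ± 8.19 CPM in the neuron cluster Exc_16. Ddc, which makes dopamine and serotonin from their precursors, stood at 112 ± 20 CPM in endothelial cells and 104 ± 59.6 CPM in newly formed oligodendrocytes, but at 0.183 CPM in excitatory neurons. Sgce, epsilon-sarcoglycan, was highest in mature oligodendrocytes (152 CPM) and OPC (150 CPM), which overlapped, and Plagl1, a zinc finger gene, in astrocytes at 28.3 ± 12.0 CPM.

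To follow adolescence, P60 saline libraries were compared with P21 libraries in each type, with UMIs summed per library. A gene was called when it passed an adjusted p of 0.05 and differed by more than 1.5-fold. The P60 animals had also undergone food restriction, food training, surgery and saline self-administration. Their saline libraries were pooled over maintenance and both withdrawal periods, and so over the ages of these periods. No batch is labelled, so age, procedure and batch cannot be told apart. Without P21 library 1, which stood apart, 9 of 26 imprinted genes tested were called in excitatory neurons (20.2% of all genes), 7 of 22 in inhibitory neurons (16.4%), 7 of 22 in endothelial cells (13.5%), 3 of 12 in microglia (31.9%), 4 of 12 in newly formed oligodendrocytes (6.00%), 2 of 14 in mature oligodendrocytes (14.5%) and 1 of 13 in astrocytes (10.6%). With all libraries, in excitatory neurons 8 of the 25 imprinted genes tested were called, 2 higher and 6 lower at P60, while 18.1% of all genes were called, 8.02% higher and 10.1% lower. The median log2 change of the 25 was −0.15, against −0.01 over all genes. Of the 16 tested genes known as paternally expressed 0 were called higher and 6 lower, and of the 8 known as maternally expressed 2 higher and 0 lower. Other types gave other counts: of maternally expressed genes 0 were higher and 2 lower in endothelial cells, in microglia and in OPC alike, and 1 paternally expressed gene was higher in each of these. Markers of other cells also moved in the excitatory class: 2 haemoglobin genes summed to 567 to 1297 CPM at P21 and 87.1 to 415 CPM at P60 (2 of 2 called lower), and 3 endothelial markers to 11.6 to 21.4 and 2.01 to 8.54 CPM (3 of 3 called lower), with none of them at 0. Of other marker lists, 1 of 1 leptomeningeal fibroblast marker tested was called higher (log2 change 1.44). Called lower were 1 of 2 OPC markers, 1 of 2 striatal markers and 1 of 3 pericyte and smooth muscle markers. No tested marker of astrocytes, microglia, inhibitory neurons or newly formed or mature oligodendrocytes was called. The part of all these markers in the results was not tested. The mix of clusters in the class also differed: Exc_20, Exc_9 and Exc_18 held 8.30%, 8.23% and 6.15% of its P21 cells and 1.40%, 2.91% and 1.83% of its P60 saline cells, while Exc_10, Exc_4 and Exc_16 went from 1.55%, 3.41% and 2.64% to 6.77%, 6.69% and 5.48%. Some of these shifts ran with the class values, since adult Zdbf2 stood at 27.3 CPM in Exc_18 and 9.21 CPM in Exc_10, and Cdkn1c was high in Exc_16. The comparison within clusters is given further on, but Mkrn3 and Usp29 did not pass the filter on low counts in any cluster and were not tested there.

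Mkrn3, a ubiquitin ligase gene whose loss brings early puberty, was close to absent from adult neurons. Its levels in excitatory neurons were 2.60, 7.40 and 4.86 CPM in P21 libraries 1, 2 and 3, with 221 UMIs in all, whereas 4 of the 6 saline libraries had none and the highest had 0.0656 CPM, with 2 UMIs in all. The ratio of P21 to P60 levels was 193, with an exact 95% counting interval of 52.8 to 1602, and edgeR gave an adjusted p of 4.9e-06. In inhibitory neurons the P21 libraries had 18.3, 27.7 and 17.0 CPM and the saline libraries 0 to 2.45 CPM, median 0.516. The groups did not overlap, and the log2 change was −3.88 ± 0.45 (SE, adjusted p = 2.2e-05), in a class where 14.1% of all genes were called. Both calls held in all 9 fits that left out a library.

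Nnat fell in neurons. In excitatory neurons it stood at 222, 661 and 581 CPM in P21 libraries 1 to 3 and at 68.7 to 124 CPM, median 95.03, in the 6 saline libraries. Every P21 library lay above every saline library, library 1 least so, and the log2 change was −2.31 ± 0.31 (adjusted p = 0.00072), or −2.66 ± 0.18 without library 1. In inhibitory neurons the P21 levels were 94.0, 299 and 243 CPM and the saline levels 6.87 to 89.1 CPM, median 65.5, a log2 change of −1.83 ± 0.47 (adjusted p = 0.034). That second call was lost without P21 library 2 (adjusted p = 0.11) or library 3 (0.12), among 6 of the 9 fits that left out a library. The change of Nnat did not differ detectably between the neuron classes (difference 0.56 ± 0.37 on the log2 scale, adjusted p = 0.47).

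Blcap, the host gene of Nnat, went the other way, with a caveat set by P21 library 1. In excitatory neurons its levels were 85.1, 33.7 and 35.2 CPM in P21 libraries 1 to 3 and 82.1 to 112 CPM, median 99.7, in saline libraries. Library 1 thus lay within the adult range while libraries 2 and 3 lay below all of it, and the log2 change was 0.97 ± 0.29 (adjusted p = 0.029). Without library 1 it was 1.57 ± 0.13 (adjusted p = 1.9e-06), and without library 2 or 3 the call was lost, at 0.74 (adjusted p = 0.082) and 0.76 (0.092), among 6 of the 9 fits that left out a library. In the fit without library 1 the P21 spread came from libraries 2 and 3 alone, and P21 libraries may share animals. With libraries 2 and 3 summed the call was lost, as it was with no filter on low counts or with only the 15 d saline libraries. The difference ran through the clusters: library 1 had the highest Blcap of the 3 in 25 of 25 excitatory and 7 of 7 inhibitory clusters with all 3 libraries. Inhibitory neurons had 151, 47.2 and 50.4 CPM at P21 and 135 to 210 CPM at P60, and no call (adjusted p = 0.12).

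**Figure D2:**
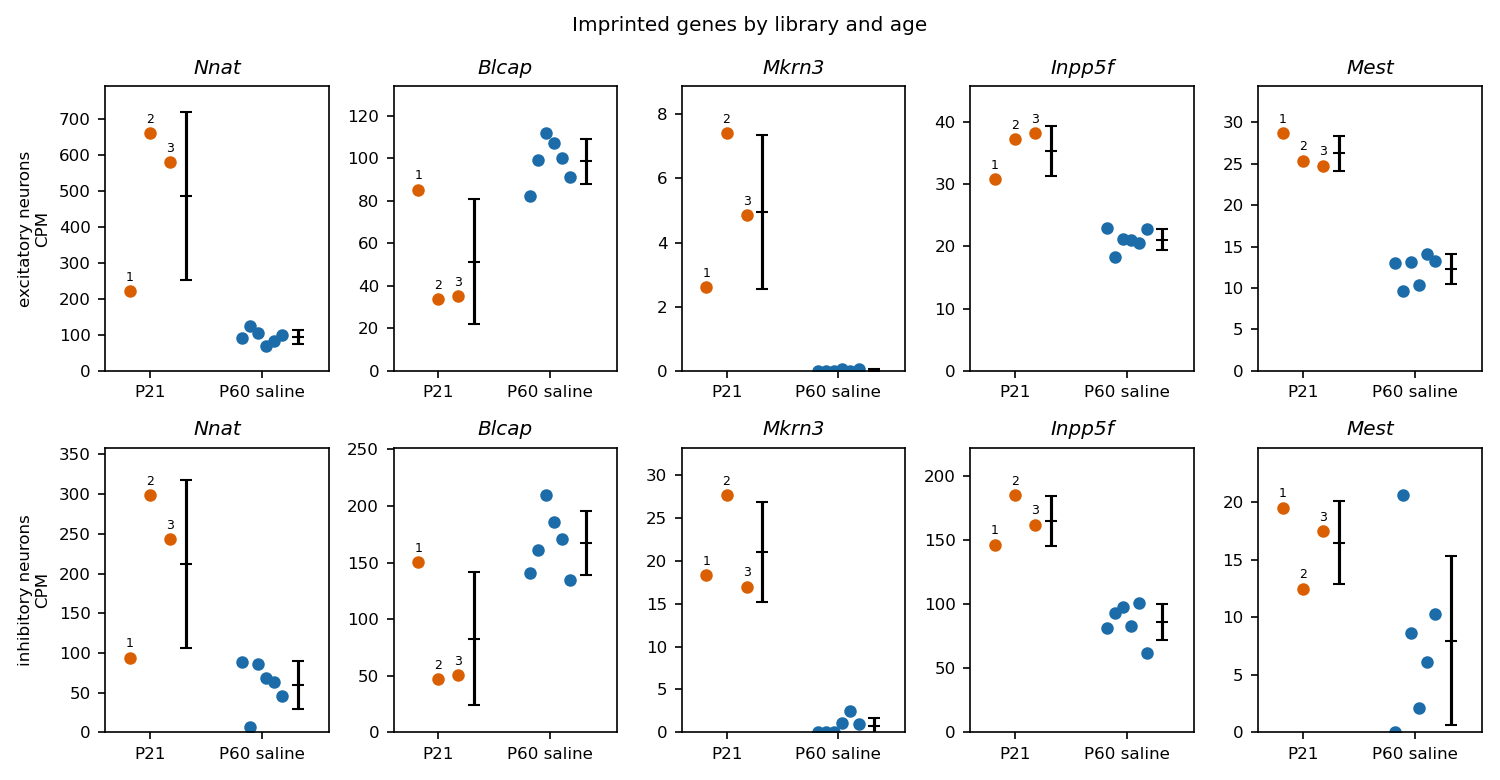
Levels of Nnat, Blcap, Mkrn3, Inpp5f and Mest in each library, in CPM on linear axes from 0, in excitatory neurons (top) and inhibitory neurons (bottom), with P21 libraries in orange and numbered, P60 saline libraries in blue, and the mean ± SD beside the points. Nnat and Mkrn3 are lower in every P60 library than in any P21 library of excitatory neurons, and P21 library 1 of Blcap sits with the adults.

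The other lower genes of excitatory neurons moved by smaller factors. Mest, a paternally expressed hydrolase-like gene, had 28.7, 25.4 and 24.8 CPM at P21 and 9.66 to 14.2 CPM, median 13.1, at P60, a log2 change of −1.06 ± 0.11 (adjusted p = 4.0e-05). Zdbf2, a zinc finger gene that influences growth through the hypothalamus, had 19.8, 22.3 and 25.1 CPM against 12.1 to 13.9 CPM, median 12.9, and fell by 0.74 ± 0.10. Inpp5f, a phosphoinositide phosphatase, had 30.8, 37.3 and 38.2 CPM against 18.2 to 23.0 CPM, median 21.1, and fell by 0.70 ± 0.09. In these 3 genes the ages did not overlap and no left-out library changed the call. Usp29, a deubiquitinase gene beside Peg3, had 3.20, 3.74 and 3.97 CPM against 1.12 to 2.95 CPM, median 2.22, and fell by 0.63 ± 0.22 (adjusted p = 0.038), a call lost in 6 of 9 fits that left out a library, among them those without P21 library 2 (0.095) or 3 (0.13).

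Cdkn1c rose in excitatory neurons and was not called in endothelial cells. It had 3.16, 2.77 and 2.17 CPM in P21 libraries and 7.26 to 16.1 CPM, median 11.2, in saline libraries of excitatory neurons, with no overlap and a log2 change of 2.11 ± 0.23 (adjusted p = 3.6e-05). In endothelial cells it went from 50.4 ± 15.2 (n = 3) to 36.3 ± 7.94 CPM (n = 6), a log2 change of −0.59 ± 0.20 that was not called (adjusted p = 0.060). The age effect differed between the types by −2.69 ± 0.27 (endothelial minus excitatory, adjusted p = 1.5e-05).

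Passing the p threshold but not the fold, Rasgrf1 was higher at P60 by 0.35 ± 0.07, Meg3 by 0.30 ± 0.10 and Snrpn by 0.29 ± 0.10 on the log2 scale in excitatory neurons. The remaining 14 genes tested there did not pass, among them Ube3a (−0.14 ± 0.10), Gnas (−0.15 ± 0.10), Ndn (−0.05 ± 0.14), Nap1l5 (−0.41 ± 0.20) and Dio3 (−0.16 ± 0.25).

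In inhibitory neurons 5 of 22 imprinted genes were called, none higher and 5 lower, beside 5.84% of all genes higher and 8.27% lower, and the median log2 change was −0.16. Besides Mkrn3 and Nnat these were Nap1l5, Inpp5f and Mest. Different clusters made up most of this class at each age: Inhib_2, Inhib_6 and Inhib_1 held 34.9%, 16.2% and 10.1% of its P21 cells but 7.94%, 3.97% and 3.07% of its P60 saline cells, whereas Inhib_7 held 7.95% and 36.3%. In adults Nap1l5 stood at 3101 CPM in Inhib_2 and 1520 CPM in Inhib_7, Inpp5f at 120 and 65.2 CPM, Nnat at 91.8 and 18.2 CPM and Peg3 at 598 and 214 CPM, so the mix of clusters moved in the same direction as the class levels of these genes. Within the inhibitory clusters tested, none of the 4 was called, with log2 changes of −0.77 to −0.35 for Nap1l5 and −0.82 to −0.46 for Inpp5f in 3 clusters, −1.23 and −0.45 for Nnat in 2, and −0.56 to 0.17 for Peg3 in 3. Change within cells and change in the mix cannot be told apart in the class values. Nap1l5 stood at 3099.6, 4795 and 4201 CPM at P21 and at 1752 to 2895 CPM, median 2254, at P60, with no overlap and a log2 change of −0.85 ± 0.15 (adjusted p = 0.0013). Inpp5f had 146, 185 and 162 CPM against 61.9 to 101 CPM, median 87.8, and fell by 0.93 ± 0.15 (adjusted p = 0.00048). Mest had 19.5, 12.5 and 17.5 CPM against 0 to 20.6 CPM, median 7.38, and its log2 change of −1.17 ± 0.39 (adjusted p = 0.040) rested on 32 adult UMIs and was lost without P21 library 1 (0.089) or 3 (0.12), among 6 of 9 fits. Rasgrf1 (0.57 ± 0.15) and Peg3 (−0.43 ± 0.14) passed the p threshold only.

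The age effect itself was then compared between inhibitory and excitatory neurons, where 8.99% of all genes differed. Of 26 imprinted genes 3 did: Snrpn, by −0.32 ± 0.07, Peg3, by −0.36 ± 0.11, and Mkrn3, by 2.91 ± 1.199, the last a fitted value that depends on the 2 adult UMIs of excitatory neurons. Snrpn went from 2552 ± 133 to 3016 ± 261 CPM in excitatory neurons but from 3153 ± 135 to 3151 ± 346 CPM in inhibitory neurons. Among adult inhibitory clusters Snrpn was highest in Inhib_2, at 3561 CPM against a cluster median of 2970 CPM. Inhib_2 held 34.9% of the class at P21 and 7.94% at P60 saline. Within the 3 inhibitory clusters tested the log2 change of Snrpn was 0.0012 to 0.21, with none called. The part of the mix in its difference was not tested. Peg3 went from 164 ± 6.96 to 145 ± 12.9 CPM in excitatory and from 445 ± 36.7 to 336 ± 57.4 CPM in inhibitory neurons, where the mix of clusters differed between the ages and the median change of Peg3 within the 3 clusters tested (Inhib_2, Inhib_7 and Inhib_9) was −0.08. For Nap1l5 the difference was −0.48 ± 0.15 and did not pass (adjusted p = 0.10).

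Endothelial cells had 6 of 22 imprinted genes called, 1 higher and 5 lower, beside 13.3% of all genes, 6.39% higher and 6.94% lower. The median log2 change of the 22 was −0.63. The 22 include genes abundant in neurons, and how these moved beside excitatory markers is given below. Scaling by total UMIs moved the calls over all genes from 680 higher and 739 lower to 883 and 591. Igf2 had 77.9, 143 and 133 CPM at P21 and 32.3 to 75.4 CPM, median 44.2, at P60, with library 1 just above the highest adult library. Its log2 change was −1.33 ± 0.29 (adjusted p = 0.012), lost without P21 library 2 or 3, where the adjusted p reached 0.057. Igf2r, the receptor that clears IGF2, fell with it, from 23.3, 19.6 and 21.3 CPM to 5.00 to 15.4 CPM, median 10.6, by 1.08 ± 0.25 (adjusted p = 0.0094). Asb4 had 27.8, 25.9 and 30.7 CPM against 11 to 21.6 CPM, median 15.4, and fell by 0.90 ± 0.19 (adjusted p = 0.0056). Ddc was the gene that rose, from 62.4, 69.8 and 58.7 CPM to 93.8 to 145 CPM, median 101, a log2 change of 0.71 ± 0.15 (adjusted p = 0.0060), although the call was lost when cells with conflicting class and cluster were left out. With only the 15 d saline libraries the calls of Ddc (adjusted p = 0.099), Igf2r (0.10) and Asb4 (0.072) were lost.

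Nnat and Mest were also called lower in endothelial cells, at low levels. Nnat went from 48.7, 47.0 and 35.1 CPM to between 1.00 and 7.69 CPM, median 3.75 (−3.37 ± 0.31, adjusted p = 1.4e-05), and Mest from 8.83, 7.05 and 7.09 CPM to between 1.00 and 1.92 CPM, median 1.17 (−2.57 ± 0.38, adjusted p = 0.00042). The groups did not overlap for either gene. RNA of excitatory neurons moved in the same direction: the 3 excitatory markers stood in endothelial cells at 11.3% of their level in excitatory neurons at P21 and at 5.42% at P60, with none of them at 0. The same percentage for Nnat was 11.7% and 4.18%, and for Mest 29.1% and 10.3%. P21 library 1 raised the first of these: it had 22.0% for Nnat and 17.6% for the markers, and without it the P21 means were 6.58% for Nnat, 8.23% for the markers and 28.2% for Mest. Among neuronal genes not called here, Snrpn went from 11.4% to 4.44%, Ndn from 11.2% to 4.22% and Meg3 from 16.2% to 8.25%. Rian went from 17.7% to 9.44%, Nap1l5 from 11.9% to 6.04% and Peg3 from 19.3% to 15.0%. Ube3a (61.2% to 66.8%) and Gnas (70.0% to 80.3%) went up. The part of neuronal RNA in these changes and in the median was not tested. The summed haemoglobin genes also moved, from 88616 to 51286 CPM, and 5 pericyte and smooth muscle markers from 4266 to 6661 CPM (3 of 5 called higher). The 5 leptomeningeal fibroblast markers summed to 111 to 134 CPM at P21 and 60.4 to 135 CPM at P60, with none at 0 and 2 of 4 tested called lower, the direction of Igf2. The P21 endothelial cells were given almost no finer cluster, with 96.1% of them under the class name alone, so the mix of endothelial clusters could not be compared between ages. The newly formed oligodendrocyte marker tested was called higher (1 of 1, log2 change 1.09), the direction of Ddc, which stood at 104 CPM in adult cells of that type. A striatal marker was also called higher (1 of 1 tested), and 1 of 2 astrocyte markers tested was called lower. The part of the markers of other cells was not tested either.

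Against excitatory neurons, where 11.1% of all genes had a different age effect, 4 of 27 imprinted genes differed in endothelial cells. These were Cdkn1c, Mest (−1.55 ± 0.35), Igf2r (−0.79 ± 0.24) and Mkrn3 (6.51 ± 1.23), the last again set by the 2 adult UMIs. Igf2r stood at 13.7 ± 0.392 CPM at P21 and 11.5 ± 1.65 CPM at P60 in excitatory neurons. For Nnat (−1.15 ± 0.66) and Blcap (−0.01 ± 0.18) no difference passed the test.

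**Figure D3:**
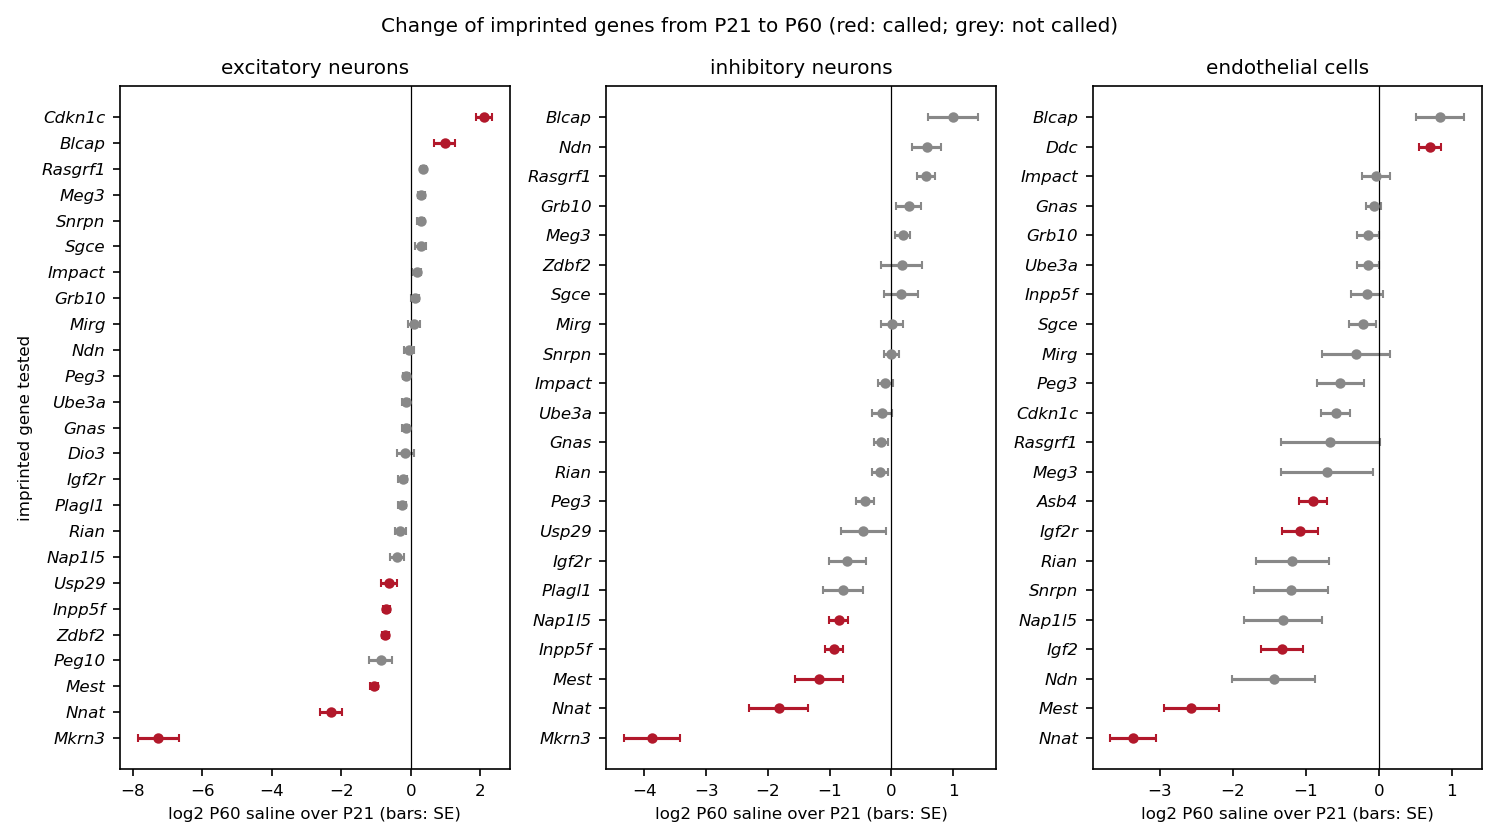
Log2 change from P21 to P60 saline for each imprinted gene tested in excitatory neurons, inhibitory neurons and endothelial cells, with bars of 1 SE, called genes in red and the others in grey. Mkrn3 and Nnat lie far below 0 and Cdkn1c in excitatory neurons far above it, and the median over the genes is −0.15 in excitatory neurons, −0.16 in inhibitory neurons and −0.63 in endothelial cells. The endothelial median includes genes abundant in neurons, and the part of neuronal RNA in it was not tested.

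In microglia, astrocytes and newly formed and mature oligodendrocytes the calls changed with the cells kept. Microglia had 6 of 12 imprinted genes called, beside 42.4% of all genes: Nnat, Nap1l5, Peg3, Rian and Ube3a lower and Sgce higher. The lower ones had P21 means of 225, 719, 133, 181 and 84.3 CPM and P60 means of 25.1, 97.8, 29.9, 49.3 and 30.4 CPM in that order, and Rian and Ube3a overlapped between ages. Excitatory markers in microglia stood at 46.8% of their neuronal level at P21 and 13.9% at P60. Markers of mature oligodendrocytes (2 of 2 tested, median log2 change −5.32), endothelial cells (2 of 2, −4.01) and pericytes and smooth muscle (1 of 2) were also called lower. Markers of astrocytes (1 of 1) and macrophages (2 of 2) were called higher, and the part of all these was not tested. When only cells whose class and cluster agreed were kept, 0 of 11 imprinted genes were called by edgeR (1 at an unadjusted p under 0.05, smallest adjusted p = 0.33), beside 0.725% of all genes, and Sgce, at 61.8 and 113 CPM with all cells, had a log2 change of −0.014 in place of 1.33. The log2 change of Nnat was −2.61 ± 0.96 in place of −2.65 ± 0.69, so its call was lost with an estimate of about the same size, whereas the other 4 shrank, Nap1l5 from −2.55 to −0.31, Peg3 from −1.78 to −0.32, Rian from −1.64 to −0.39 and Ube3a from −1.21 to −0.46.

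OPC had 4 of 13 called, beside 20.5% of all genes, from 2 P21 libraries with 31 and 12 cells. Ube3a, Snrpn and Rian were lower, with P21 means of 154, 1843 and 267 CPM and P60 means of 61.5, 545 and 60.5 CPM. Nnat was higher, with 457 and 262 CPM at P21 and 507 to 892 CPM, median 821, at P60 (log2 change 0.99 ± 0.29, adjusted p = 0.028), the opposite direction to neurons. Excitatory markers in P21 OPC stood at 77.5% of their neuronal level, against 13.1% at P60, and too few P21 cells lay in OPC clusters to repeat the fit on them. Leaving out either P21 library set 1 library against 5, with the lone library assumed to vary like the P60 libraries, and then none of the 4 was called without library 2 and only Nnat without library 1.

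Newly formed oligodendrocytes had 4 of 12 called lower, beside 5.98% of all genes: Rian, from 54.6 to 15.9 CPM, Snrpn, from 736 to 414 CPM, Gnas, from 331 to 182 CPM, and Ndn, from 154 to 73.9 CPM. Among cells whose class and cluster agreed edgeR called 0 of 11 (1 at an unadjusted p under 0.05), beside 2.31% of all genes. In that edgeR fit the adjusted p was 0.64 for Snrpn, 0.40 for Gnas and 0.38 for Ndn, and Rian was no longer tested. The 3 excitatory markers in this class summed to a mean of 205 CPM at P21 and 90.2 CPM at P60 (2 of 3 called lower, none at 0), and their part was not tested. Mature oligodendrocytes had 2 of 14 called lower, beside 16.4% of all genes. Nnat had 58.7, 24.1 and 195 CPM at P21 against 0 to 15.0 CPM, median 7.88 (−3.54 ± 0.65, adjusted p = 0.0044), and Gnas 232, 244 and 358 CPM against 105 to 229 CPM, median 155 (−0.85 ± 0.20, adjusted p = 0.0062), a call lost without P21 library 3. The call of Nnat was lost with only the 15 d saline libraries (−3.51 ± 1.18, adjusted p = 0.23), and it did not pass the filter on low counts without P21 library 1 or among cells whose class and cluster agreed. Only 5 of the 9 fits that left out a library tested Nnat, and these 5 called it. Its P21 level was lowest in library 2, where excitatory markers stood at 1.88% of their neuronal level, against 10.3% and 13.9% in libraries 1 and 3, and these markers averaged 8.70% at P21 and 6.06% at P60, with 0 of 3 called (0 at an unadjusted p under 0.05, by edgeR). Markers of newly formed oligodendrocytes, where adult Nnat stood at 192 CPM, summed to 174 to 184 CPM at P21 and 59.1 to 158 CPM at P60 (1 of 1 tested called lower, none at 0), and the part of either was not tested. Astrocytes had 1 of 15 called, beside 7.61% of all genes. It was Inpp5f, with 43.8, 32.6 and 34.1 CPM against 7.27 to 21.4 CPM, median 16.9 (−1.45 ± 0.38, adjusted p = 0.034). Only 4 of the fits that left out a library tested Inpp5f, and 2 called it, with the call lost without P21 library 2 or 3. Markers of other cells moved with it in astrocytes: 3 of mature oligodendrocytes, where Inpp5f stood at 81.9 CPM in adults, summed to 838 to 1617 CPM at P21 and 11.3 to 71.9 CPM at P60 (2 of 3 called lower), and 3 of endothelial cells to 316 to 365 and 4.36 to 42.1 CPM (2 of 2 tested called lower), with none at 0. Among cells whose class and cluster agreed 0 of 14 imprinted genes were called in astrocytes by edgeR (2 at an unadjusted p under 0.05), beside 0.934% of all genes. In that edgeR fit Inpp5f stood at −1.52 ± 0.44 (adjusted p = 0.12), and the part of these markers was not tested.

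The same comparison was repeated within each finer excitatory cluster. Over 26 clusters 11.3% of all gene and cluster pairs were called. Nnat was called lower in 15 of the 20 clusters where it was tested, with log2 changes of −3.88 to −1.60 among the called, and its estimate was below 0 in all 20. The steepest of these was Exc_24, from 78.3 to 4.48 CPM, and Exc_12, which kept the highest adult level, went from 2489 to 703 CPM (−1.74 ± 0.31, adjusted p = 0.011). Blcap was called higher in 11 of 26 clusters, by 0.81 to 1.296, and lay above 0 in 25. Among the called clusters, P21 and saline libraries overlapped for Blcap in Exc_12, Exc_13, Exc_14, Exc_16, Exc_17 and Exc_21. P21 library 1 had the highest Blcap of the 3 in 25 of 25 excitatory clusters with all 3 libraries. All clusters come from the same libraries, so counts of clusters are not independent for any gene. Mest was called lower in 9 of 14, Inpp5f in 5 of 16 and Zdbf2 in 2 of 10, and the estimates of these 3 genes were below 0 in every cluster tested, at −1.43 to −0.35, −1.19 to −0.11 and −1.25 to −0.19 in that order. Cdkn1c was called higher in 4 of 5, by log2 changes from 1.43 in Exc_16 (14.0 to 41.2 CPM) to 2.64 in Exc_25 (1.94 to 12.4 CPM).

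Ndn was called higher at P60 in Exc_21, from 621 ± 89.7 to 936 ± 140 CPM, and in Exc_7, from 448 ± 110 to 705 ± 120 CPM, but lower in Exc_18, from 528 ± 91.6 to 333 ± 61.6 CPM. Whether these changes differed from each other was not tested. Nap1l5 was called lower in Exc_3, Exc_4 and Exc_18. Meg3 and Snrpn lay above 0 in 26 of 26 clusters, with medians of 0.33 and 0.29, and Meg3 was called in Exc_11. Sgce, Rasgrf1 and Impact were called higher and Rian lower in 1 cluster each. Ube3a and Gnas were called in none of the 26 clusters. In the 3 inhibitory clusters that could be tested edgeR called 0 of 39 gene and cluster pairs (11 at an unadjusted p under 0.05), beside 1.65% of all pairs, and 4 when no filter on low counts was set.

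**Figure D4:**
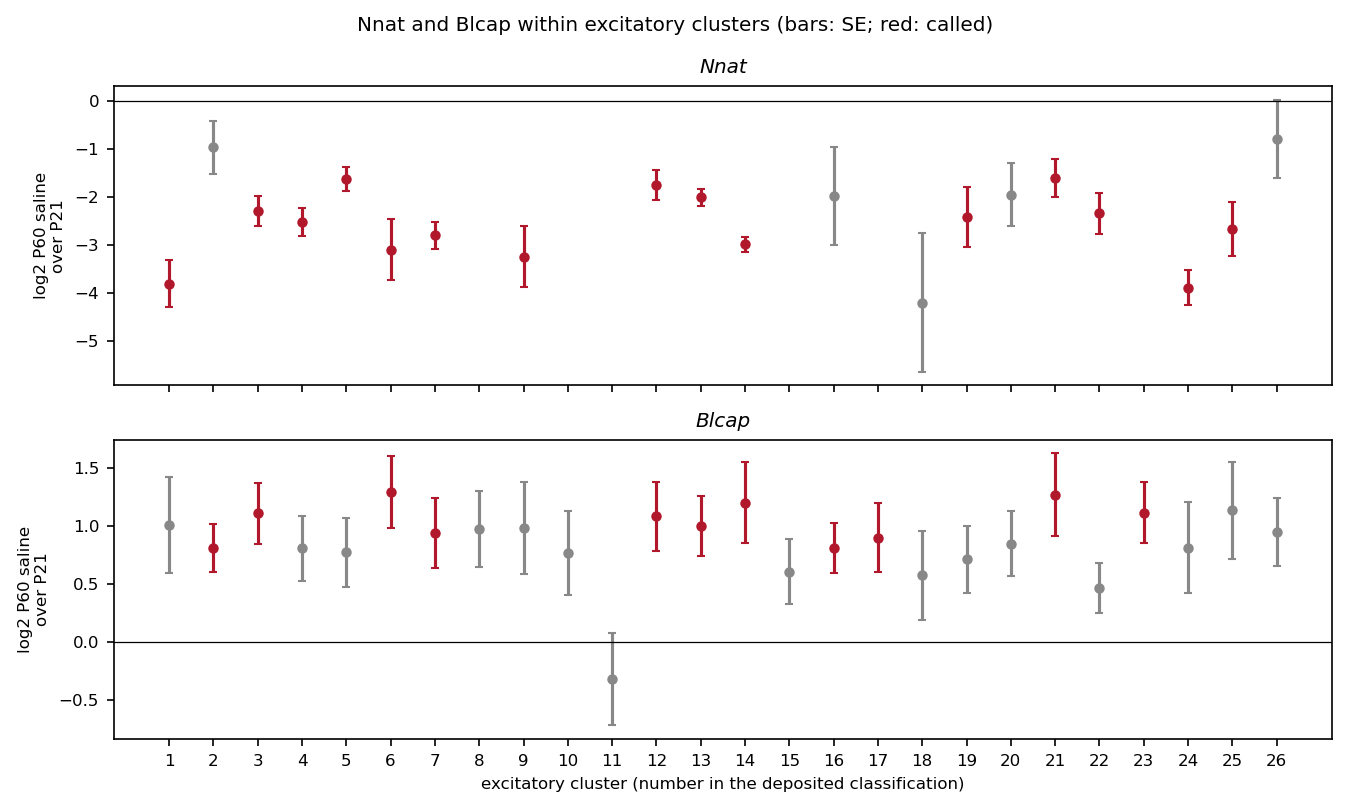
Log2 change of Nnat and Blcap from P21 to P60 saline in each excitatory cluster, with bars of 1 SE and called changes in red. Nnat lies below 0 in the 20 clusters where it was tested, and Blcap above 0 in 25 of 26. The clusters come from the same libraries, so these counts are not independent.

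Genes related to the imprinted set were tested in the same fits, where 18.1% of all genes were called in excitatory neurons, 14.1% in inhibitory neurons and 13.3% in endothelial cells. Of 15 regulators of imprints and DNA methylation tested in excitatory neurons, 5 were called: Zfp57, which guards imprints in the embryo, was higher by 0.67 ± 0.14, and Tet1 (−1.81), Dnmt3a (−1.44) and Tet3 (−0.79), which remove or add methyl groups, were among 4 lower. Inhibitory neurons had Dnmt3a, Tet1 and Tet3 lower, 3 of 13, and endothelial cells 4 of 15. Of a further list of imprinted genes outside the 34, 3 of 22 were called in excitatory neurons, 0 of 16 in inhibitory neurons (1 at an unadjusted p under 0.05, by edgeR) and 5 of 21 in endothelial cells. Non-imprinted relatives of the members had 6 of 28, 4 of 21 and 3 of 22 called, and Mkrn1, a relative of Mkrn3, was lower in all 3 types, by 1.01, 1.13 and 1.65 in that order on the log2 scale. Of the IGF pathway 6 of 12 genes were called in excitatory neurons, with Igfbp6 higher (1.305 ± 0.24) and Igf1 (−1.95 ± 0.49) and Igfbp4 (−0.97 ± 0.16) lower. In endothelial cells Igfbp4, Igfbp3 and Igfbp5 were lower, 3 of 10, and in inhibitory neurons Igfbp6 was higher, 1 of 9.

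Cocaine moved no imprinted gene past the threshold at any period in the types tested. Astrocytes, OPC and newly formed oligodendrocytes were not tested during maintenance or between periods, because a saline library of maintenance had too few of these cells. During maintenance 0 of 93 gene and type pairs were called (5 at an unadjusted p under 0.05), beside 0.00459% of all pairs. After 48 h of withdrawal 0 of 132 were called (6 under 0.05), beside 0.00661%, and after 15 d 0 of 132 (8 under 0.05), beside 0.325%. DESeq2 called none in these comparisons either (10 under 0.05, against 19 with edgeR). The test of whether the effect of cocaine differed between periods called 0 of 93 (2 under 0.05), beside 0.0115% of all pairs. With 2 libraries a group the median SE of a log2 change was 0.29 to 0.35, and the differences given next, up to 1.90 on the log2 scale, did not pass, so that changes well above 1 SE could also go uncalled.

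The nearest cases are given for their values. Nap1l5 in inhibitory neurons after 15 d stood at 3182 and 3371 CPM with cocaine and at 1752 and 2452 CPM with saline, with no overlap and a log2 difference of 0.65 ± 0.19 (adjusted p = 0.15). Dio3 in excitatory neurons during maintenance had 4.62 and 3.36 CPM with cocaine and 1.57 and 1.33 CPM with saline (1.45 ± 0.42, adjusted p = 0.74), from 80 UMIs in all. Nnat in mature oligodendrocytes after 15 d had 9.84 and 49.8 CPM with cocaine and 9.19 and 6.56 CPM with saline, where 1 of the cocaine libraries made the difference (1.90 ± 0.64, adjusted p = 0.32). Mest in excitatory neurons after 15 d had 19.7 and 17.1 CPM against 14.2 and 13.3 CPM (0.46 ± 0.16, adjusted p = 0.33). When the second saline library of 15 d was left out, which set 1 saline library against 2 cocaine libraries with a spread taken from the other P60 groups, Nap1l5 was called in inhibitory neurons (0.91) and OPC (0.92) and Peg3 in astrocytes (−1.19).

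**Figure D5:**
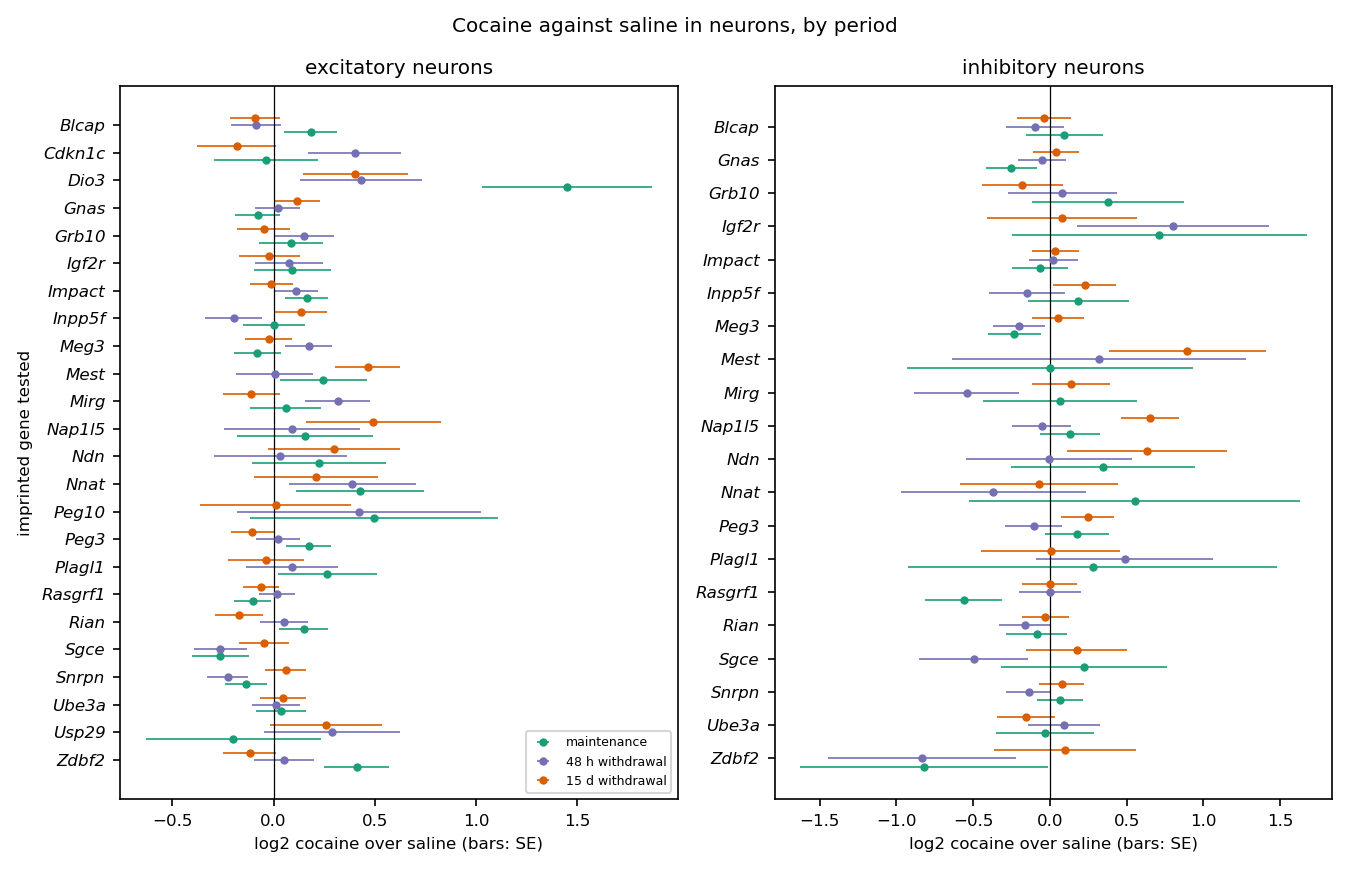
Log2 difference between cocaine and saline libraries for each imprinted gene tested in excitatory and inhibitory neurons, with 1 colour each for maintenance, 48 h and 15 d of withdrawal and bars of 1 SE. No gene was called, and Dio3 during maintenance lies farthest from 0 in excitatory neurons.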

How the data were processed

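PFC cells of 3 P21 and 12 P60 libraries, each described as a pool of 2 mice, were measured, though the P21 mice named in the methods are too few for 3 separate pools. Per the processing notes of the submitters, the authors aligned reads to mm9 with Cell Ranger, filtered and clustered cells with Seurat 2.1.0, and deposited UMI counts per gene and cell as whole numbers, with a class, a cluster and the mitochondrial fraction of each cell, as deposited. P21 cells had been named by their likeness to P60 clusters. Whether counting used strand is not given in the sources used here. Mest and Copg2, Igf2 and Igf2as, Meg3 and Gm17639, and Gnas and Nespas overlap in exons on opposite strands and may share reads. Nnat and Blcap, and Nap1l5 and Herc3, overlap on opposite strands but not in annotated exons, and shared reads were not examined. The authors left out cells with unusually many genes as possible doublets, and doublets were not called again.

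Counts were summed per library and cell class or cluster (at least 10 cells), without 13 mitochondrial and 85 ribosomal protein genes, which took 8.81% to 11.0% of the UMIs of the retained cells. P60 saline was tested against P21, and cocaine against saline within each period, in edgeR 4.0.16 (R 4.3.3) by the quasi-likelihood test with TMM scaling and filterByExpr, adjusted by Benjamini-Hochberg over all genes tested. Every SE of a log2 change comes from that fit, and two-sided p-values measure only the spread between these libraries, numbered in accession order. DESeq2 1.42.0 served as an alternative, and the scripts were tested on simulated data. Libraries and not cells were the replicates, and counting intervals cover counting error only. There were 0 other columns of per-sample values. Every listed gene found by symbol is accounted for, with library values for called genes and for the most abundant gene of a locus, and from the related lists counts with up to 3 called genes of largest change in each direction. The members and lists were chosen with earlier results of these data known. Alternatives marked below as added were chosen after seeing the data. Gene positions are from the NCBIM37 annotation and promoter windows from RefSeq, whose builds were not mixed.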

Additional observations from a re-analysis of the deposited data

Results flagged for a closer look

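In 36 groups of 5 or 6 saline libraries, 3 had a library far from the others, and chance gives about 1 in 20. All 3 were the first 15 d saline library: Mest in endothelial cells at 1.92 CPM, with the nearest at 1.28 CPM, and in microglia Ube3a at 59.8 CPM, with the nearest at 29.9 CPM, and Rian at 161 CPM, with the nearest at 63.0 CPM.

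In 7 cases the age effect of an imprinted gene differed between cell types, as tested in edgeR fits with the library as a block. Inhibitory minus excitatory, the log2 difference was −0.32 for Snrpn (adjusted p = 0.00039), −0.36 for Peg3 (adjusted p = 0.036) and 2.91 for Mkrn3 (adjusted p = 0.044). The mix of inhibitory clusters differed between the ages, and its part in these differences was not tested. Endothelial minus excitatory, the log2 difference was −2.69 for Cdkn1c (adjusted p = 1.5e-05), −1.55 for Mest (adjusted p = 0.0088), −0.79 for Igf2r (adjusted p = 0.043) and 6.51 for Mkrn3 (adjusted p = 0.0018). The levels behind the 7 cases are given above with each gene, except for Mkrn3 in endothelial cells. There Mkrn3 had a median of 1.21 CPM over the 13 adult endothelial clusters and was not tested for age in the class by itself.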

How the results depend on the processing

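No paired analysis was possible because replicate numbers were given in accession order and the labels share none between groups. The cause of each shift below was not tested. The calls of Mkrn3, Mest, Inpp5f, Zdbf2, Cdkn1c and Nnat in excitatory neurons, of Mkrn3, Nap1l5 and Inpp5f in inhibitory neurons and of Nnat and Mest in endothelial cells held in every alternative run for them. These runs used the whole class and did not hold its mix of clusters fixed. Within the 3 inhibitory clusters tested, Nap1l5 and Inpp5f were not called. Of the 36 calls by age, 16 did not keep their call and direction without P21 library 2, 11 without library 3 and 7 without library 1. Leaving out a saline library lost 3 to 9 of the 36, the most without the second 48 h saline library. A gene that did not pass the filter on low counts in such a fit was counted as kept, such as Nnat in mature oligodendrocytes without P21 library 1.

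With only the 15 d saline libraries (added), the calls by age were 3 in endothelial cells in place of 6, beside 5.33% of all genes. They were 1 each in microglia (10.3% of all genes), newly formed oligodendrocytes (1.96%) and mature oligodendrocytes (5.10%), 2 in OPC (9.92%) and 0 in astrocytes (1.62%). With P21 libraries 2 and 3 summed (added), they were 3 in inhibitory neurons (9.92% of all genes), 3 in microglia (31.2%), 2 in newly formed oligodendrocytes (4.19%) and 0 in astrocytes (2.96%). With cells whose class and cluster agreed (added), they were 0 in microglia (0.725% of all genes), newly formed oligodendrocytes (2.31%) and astrocytes (0.934%) and 1 in mature oligodendrocytes (17.8%). In that setting Sgce in microglia went from 1.33 to −0.014. Scaling by total UMIs gave 11 in microglia and 2 in OPC, with the median of all genes shifted by −0.49 in microglia and −0.15 in astrocytes, and turned the calls over all genes from 1032 higher and 870 lower to 566 and 1561 in microglia, from 227 and 258 to 154 and 276 in astrocytes and from 365 and 488 to 452 and 403 in mature oligodendrocytes. DESeq2 size factors gave 10 in microglia (43.2% of all genes). DESeq2 gave 0 in astrocytes, at least 30 cells gave 1 in newly formed oligodendrocytes, and all 12 P60 libraries gave 3 in astrocytes. For these settings the share of all genes called is not given, so the counts are not set beside it. With no filter (added for clusters) there were 5 in astrocytes (5.29% of all genes) and 4 in mature oligodendrocytes (7.56%), and 106 pairs over excitatory clusters and 4 over inhibitory clusters. The same setting under cocaine gave 1 each in microglia during maintenance (Nnat, −3.29) and in inhibitory neurons (Nap1l5, 0.69) and mature oligodendrocytes (Nnat, 1.91) after 15 d. Without a fold limit (added) 86 pairs over excitatory clusters passed in place of 57. The share over all pairs is not given for the cluster counts without a filter or without a fold limit. Saline libraries alone put 0 genes highest in excitatory neurons and 1 in newly formed oligodendrocytes, and keeping mitochondrial and ribosomal genes in the total put 0 highest in microglia.

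Leaving out 1 library at a time gave 0 to 1 calls in astrocytes, 3 to 7 in inhibitory neurons, 3 to 10 in microglia, 0 to 5 in newly formed oligodendrocytes, 0 to 8 in OPC and 1 to 4 in mature oligodendrocytes. Under cocaine after 15 d it gave 0 to 1 in astrocytes, inhibitory neurons and OPC, with the lone library of a group assumed to vary like the other P60 groups. In OPC, leaving out a P21 library left 1 P21 library, assumed to vary like the P60 libraries. The 10 in microglia and the 8 in OPC came without the first 15 d saline library, and the 0 in newly formed oligodendrocytes without P21 library 2. For fits with a library left out, the share of all genes called is given above only for P21 library 1, in types other than OPC. The other counts are therefore not set beside all genes. Fits within clusters were not repeated with libraries left out.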
